A study of Mus musculus with 8 samples.

Results

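Neurotrophins are secreted growth factors that support neurons and tune their synapses. Brain-derived neurotrophic factor (Bdnf) acts mainly through the receptor tyrosine kinase TrkB (Ntrk2), and neurotrophin-3 (Ntf3) mainly through TrkC (Ntrk3). The receptor p75 (Ngfr) binds every neurotrophin and, together with sortilin (Sort1), the uncleaved precursors, while sortilin also sorts the Bdnf precursor inside the cell. In cortex, Bdnf is made largely by excitatory neurons and rises with their activity, and astrocytes carry a TrkB form that lacks the kinase.

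These 6 genes were picked by symbol from a table of 14765 genes, and all 6 had a row. The table counts poly(A) RNA in bulk PrL tissue of C57 mice, where PrL is read as prelimbic cortex, an area of the medial prefrontal cortex. There were 4 SNI and 4 Sham libraries. SNI stands in pain research for spared nerve injury, a lasting neuropathic pain model, and Sham is its control. The labels used here give no age, sex or time after surgery and do not say whether a library is 1 mouse or a pool, so the spread behind each p-value is that of libraries and could be technical. The series' title places the comparison in a study of how the brain's top-down pathways act on touch pain and anxiety-like behaviour in chronic pain.

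Libraries held 14735602 to 19602487 counts. Excitatory neuron signal was described with 8 markers, which were all measured and summed to 3669 to 5140 CPM (counts relative to library size, scaled between libraries by the TMM method) in SNI and 4926 to 5650 CPM in Sham. With no other tissue for comparison, these sums do not test cortical identity. All 9 striatal neuron markers were measured too, at a summed 373 to 888 CPM in SNI and 252 to 495 CPM in Sham, highest in SNI replicates 2 and 4. In bulk tissue, fewer cells of a type and less RNA per cell cannot be told apart.

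Bdnf is the ligand whose level changed below, and its gene has 7 start sites in RefSeq (build GRCm38.p6). The counts add up transcripts from all of these starts and do not tell them apart. Of the 7 windows of 250 bases before a start, 1 held the letters CACGTCA, a known form of the cyclic AMP response element bound by CREB, beginning 37 bases before the start. That window, on the plus strand at chr2:109692186-109692435, belongs to the activity-dependent start usually called promoter IV, and a window of Ntf3, on the minus strand at chr6:126164961-126165210, is shown beside it for the other ligand. That Ntf3 window and the other 6 Bdnf windows held none of the motifs searched, while the second Ntf3 window, which is not printed, held 1 CACGTG. Capitals mark CACGTCA.
Bdnf: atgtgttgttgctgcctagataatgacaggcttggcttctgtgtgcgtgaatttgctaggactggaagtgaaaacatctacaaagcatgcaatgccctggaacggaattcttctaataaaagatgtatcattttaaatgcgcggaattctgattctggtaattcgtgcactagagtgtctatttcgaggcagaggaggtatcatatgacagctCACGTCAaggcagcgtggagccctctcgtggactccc
Ntf3: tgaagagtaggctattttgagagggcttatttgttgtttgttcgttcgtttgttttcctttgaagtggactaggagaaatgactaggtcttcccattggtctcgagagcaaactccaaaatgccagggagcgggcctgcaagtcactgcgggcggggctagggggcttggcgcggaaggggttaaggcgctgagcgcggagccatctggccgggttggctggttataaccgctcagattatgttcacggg
The motifs searched on both strands were TGACG (the core of the element, contained in CACGTCA on the other strand), the E-box CACGTG, and CACGTCA, which was added after the Bdnf window had been read. They occur in 17.8%, 6.02% and 1.65% of 32851 promoter windows of that length, and a match describes letters only.

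The ligands differed in direction. Bdnf was 1.59-fold lower in SNI, and it was the only 1 of the 6 genes to pass the threshold in the test across all genes (edgeR's quasi-likelihood test, Benjamini-Hochberg adjusted p under 0.05). Over all 13911 tested genes, 5.02% passed in either direction, 2.15% higher and 2.87% lower in SNI. Ntf3 was 2.04-fold higher on average in SNI and did not pass.

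Bdnf (chromosome 2, 109674700 to 109727007, plus strand) had 375, 634, 326 and 564 counts in SNI replicates 1 to 4, against 565, 654, 787 and 764 in Sham replicates 1 to 4. Scaled for depth these were 23.2, 31.4, 21.7 and 33.99 CPM in SNI and 38.3, 43.4, 49.7 and 43.8 CPM in Sham. Every SNI library lay below every Sham library, and within SNI replicates 1 and 3 lay clearly below replicates 2 and 4. The means were 27.6 ± 6.03 CPM in SNI and 43.8 ± 4.66 CPM in Sham (SD, n = 4 libraries each), and the log2 fold change was -0.67 ± 0.135 (SE) with an edgeR adjusted p of 0.0139. The call was kept whichever single library was left out, with log2 fold changes of -0.78 to -0.57 and an edgeR adjusted p of at most 0.0487. It ended with a striatal marker value per library as a covariate, at a log2 fold change of -0.85 and an edgeR adjusted p of 0.0859, and without SNI replicates 2 and 3 together, at -0.61 and 0.0808.

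Ntf3 (chromosome 6, 126101412 to 126166910, minus strand) is scarce in this tissue, with 65, 59, 39 and 64 counts in SNI and 18, 24, 45 and 16 counts in Sham. In CPM these were 4.03, 2.92, 2.60 and 3.86 in SNI, against 1.22, 1.59, 2.84 and 0.918 in Sham. Sham replicate 3 lay above SNI replicate 3, so the groups overlapped, while the other 3 Sham libraries lay below all SNI libraries. The mean was 3.35 ± 0.699 CPM in SNI and 1.64 ± 0.846 CPM in Sham (SD, n = 4 libraries each), with a log2 fold change of 1.03, a 95% interval of 0.35 to 1.70 and an edgeR adjusted p of 0.0756. Without Sham replicate 3 it was 1.43 and passed (edgeR adjusted p = 0.0287), and it passed also with DESeq2 (adjusted p = 0.0362) and with limma voom (adjusted p = 0.0266).

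**Figure D1:**
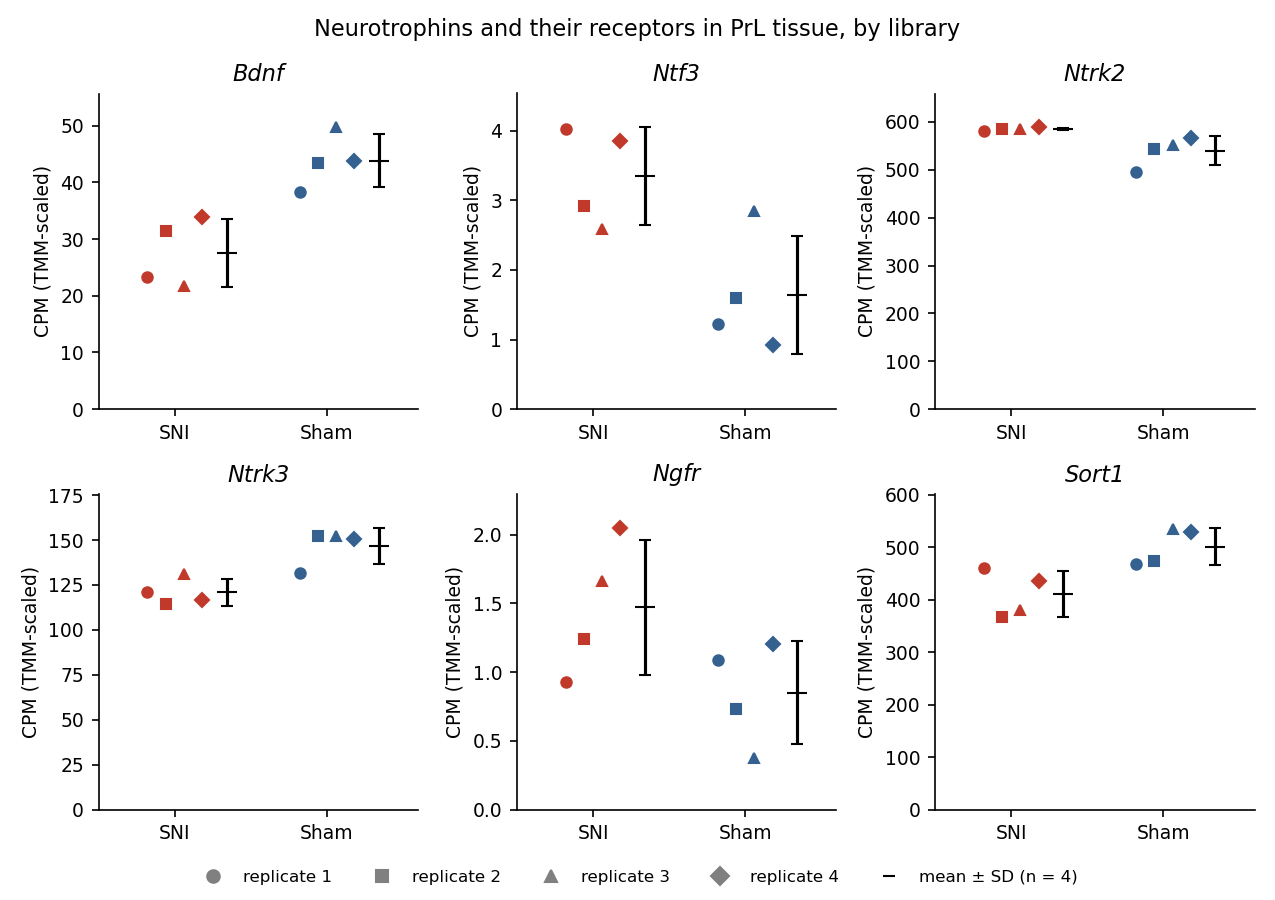
Level of each gene in TMM-scaled CPM (vertical axes, from 0) in the 4 SNI libraries (red) and 4 Sham libraries (blue), with the replicate number as the marker shape and the mean ± SD in black. Bdnf, Ntrk3 and Sort1 lie lower and Ntrk2 higher in every SNI library than in every Sham library, while Ntf3 and Ngfr overlap between the groups.

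The Trk receptors did not pass the threshold, and their estimates had opposite signs. Ntrk2 (chromosome 13, 58806569 to 59133970) had 582, 586, 586 and 589 CPM in SNI and 496, 544, 551 and 566 CPM in Sham. The SNI libraries were almost level and all lay above the Sham libraries. The difference in means was small, 585 ± 2.73 CPM in SNI against 539 ± 30.2 CPM in Sham (SD, n = 4 libraries each). The log2 fold change of Ntrk2 was 0.12 with a 95% interval of -0.04 to 0.27 and an edgeR adjusted p of 0.38. Counts are per gene, so the kinase and the truncated forms of TrkB are added together.

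Ntrk3 (chromosome 7, 78175959 to 78738012) had 121, 115, 131 and 117 CPM in SNI, against 132, 152, 152 and 150 CPM in Sham. The groups did not overlap, but SNI replicate 3 and Sham replicate 1 were almost equal, at 131.3 and 131.7 CPM. The means were 121 ± 7.45 CPM in SNI and 147 ± 10.1 CPM in Sham (SD, n = 4 libraries each). The log2 fold change was -0.28 ± 0.0793 (SE), and the edgeR adjusted p of 0.0531 fell just short of the threshold. Ntrk3 passed without Sham replicate 1 (edgeR adjusted p = 0.0464), with DESeq2 (adjusted p = 0.0116) and with limma voom (adjusted p = 0.0262), while with the striatal covariate its log2 fold change was -0.16 (edgeR adjusted p = 0.603).

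Neither p75 nor sortilin, which together bind the uncleaved precursors, passed, and Ngfr had far fewer counts than Sort1. Ngfr (chromosome 11, 95568818 to 95587735) had 15, 25, 25 and 34 counts in SNI and 16, 11, 6 and 21 counts in Sham. With so few reads, the exact 95% Poisson interval of the lowest library, at 6 counts, ran from 2.20 to 13.1, and that of the highest, at 34 counts, from 23.5 to 47.5 (intervals here cover counting error only). Its level was 1.47 ± 0.489 CPM in SNI and 0.850 ± 0.373 CPM in Sham (SD, n = 4 libraries each), with overlapping groups, a log2 fold change of 0.78, a 95% interval of -0.04 to 1.59 and an edgeR adjusted p of 0.259. Mural and fibroblast markers, of cells that can carry p75, were all measured (10 of 10) at a summed 141 to 260 CPM in SNI and 142 to 221 CPM in Sham, and 0 of them passed, by edgeR or by the other tools (0 in edgeR and 1 in DESeq2 at an unadjusted p under 0.05). Cholinergic markers, carried among others by basal forebrain neurons rich in p75, do not tell these from other cholinergic neurons. They were also all measured (3 of 3), at a summed 2.23, 7.48, 2.53 and 7.65 CPM in SNI replicates 1 to 4 and 2.19 to 3.26 CPM in Sham. Slc18a3 was too low to be tested, and Chat and Slc5a7 did not pass in edgeR (unadjusted p of 0.0714 and 0.0137). Ngfr itself had 0.929, 1.24, 1.66 and 2.05 CPM in SNI replicates 1 to 4, more in replicate 3 than in replicate 2. With the striatal covariate, whose markers also peak in SNI replicates 2 and 4, the log2 fold change of Ngfr was 0.21 (edgeR adjusted p = 0.924). The part of cholinergic cells in the Ngfr value was not tested.

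Sort1 (chromosome 3, 108284082 to 108361511) had 461, 366, 381 and 435 CPM in SNI, against 467, 474, 535 and 529 CPM in Sham. Every SNI library lay below every Sham library, with SNI replicate 1 closest to the Sham range. The means were 411 ± 44.6 CPM in SNI and 501 ± 35.6 CPM in Sham (SD, n = 4 libraries each), and the log2 fold change was -0.29 ± 0.0899 (SE) with an edgeR adjusted p of 0.0789. Sort1 passed without SNI replicate 1 (edgeR adjusted p = 0.0371) and with DESeq2 (adjusted p = 0.0271). Its log2 fold change was -0.16 without SNI replicates 2 and 3 (edgeR adjusted p = 0.348) and -0.20 with the striatal covariate (0.579).

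Counting Bdnf, Ntrk2, Ntrk3 and Sort1, 4 of the 6 genes had groups that did not overlap, which held for 12.7% of all tested genes. Of these, Ntrk2 alone lay above Sham in every SNI library, as 5.64% of tested genes did, and the other 3 lay below, as 7.02% did. The median log2 fold change of all tested genes was 0.01. The scaling between libraries turned no direction: with 3 other scalings the log2 fold changes kept their sign in all 6 genes.

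Divided by the length of all annotated exons (GENCODE M21, GRCm38), the levels in SNI ran from Sort1 at 54.3 ± 5.89 CPM per kb and Ntrk2 at 30.3 ± 0.142 CPM per kb through Bdnf at 4.44 ± 0.970 and Ntrk3 at 4.01 ± 0.247 CPM per kb to Ntf3 at 1.95 ± 0.408 and Ngfr at 0.427 ± 0.142 CPM per kb (SD, n = 4 libraries). In Sham they were 66.2 ± 4.70 for Sort1, 27.96 ± 1.57 for Ntrk2, 7.05 ± 0.750 for Bdnf, 4.86 ± 0.333 for Ntrk3, 0.959 ± 0.494 for Ntf3 and 0.247 ± 0.108 for Ngfr (CPM per kb, SD, n = 4 libraries). The order of the means was the same in both groups. Neighbours in it were separate in every library, except Bdnf and Ntrk3 in SNI, at 3.49 to 5.47 and 3.80 to 4.35 CPM per kb, which overlapped. Exon length adds up all isoforms, 30.2 kb for Ntrk3 and 1.71 kb for Ntf3, so the level per kb of a gene with many long isoforms is understated. Bdnf and Sort1 share exonic sequence with an antisense gene, Gm45346 and Gm12523. Libraries were made to keep strand, but the labels do not state that counting used it, so reads of the antisense genes cannot be told apart from theirs.

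A ratio of 2 genes within 1 library needs no scaling between libraries, and 3 ratios were compared. Bdnf counts were 5.77, 10.7, 8.36 and 8.81 times the Ntf3 counts in SNI, against 31.4, 27.25, 17.5 and 47.8 times in Sham. All SNI ratios lay below all Sham ratios, including that of Sham replicate 3. On the log2 scale the Bdnf to Ntf3 ratio was 3.04 ± 0.375 in SNI and 4.86 ± 0.597 in Sham (SD, n = 4 libraries each), a difference of -1.82.

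The Ntrk2 to Ntrk3 ratio was 4.81, 5.11, 4.46 and 5.04 in SNI, against 3.77, 3.57, 3.62 and 3.76 in Sham. Its spread was narrow in both groups, with log2 means of 2.28 ± 0.0891 in SNI and 1.88 ± 0.0390 in Sham (SD, n = 4 libraries each) and a difference of 0.40. The ratio of Bdnf to its receptor gene Ntrk2 was 0.0399, 0.0536, 0.0371 and 0.0577 in SNI and 0.0773, 0.0798, 0.0902 and 0.0775 in Sham, a log2 difference of -0.81. Each of the 3 ratios separated the groups in 4 of 4 libraries, with an exact two-sided permutation p of 0.0286, the smallest that 4 against 4 libraries can give, and the same value after Benjamini-Hochberg adjustment over the 3. The ratios share genes with the tests above and are not independent of them. Ntrk2 lay higher and Bdnf and Ntrk3 lower in every SNI library than in every Sham library. The Ntrk2 to Ntrk3 and Bdnf to Ntrk2 ratios therefore had to separate the groups, and their p-values add no further support.

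**Figure D2:**
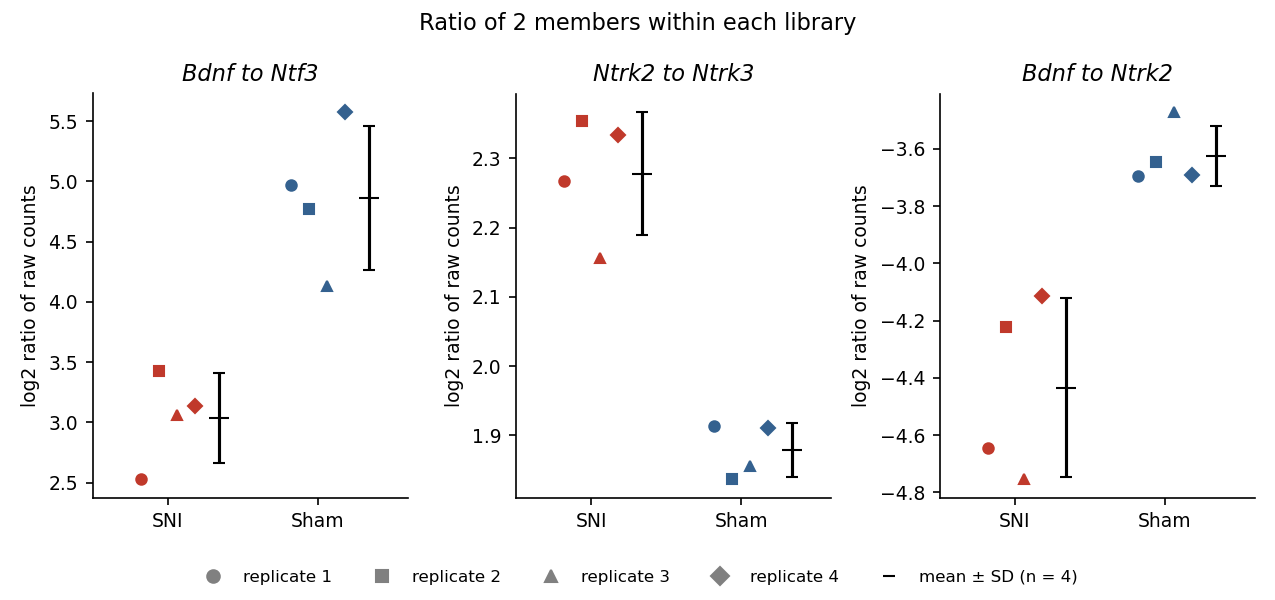
The log2 ratio of raw counts of 2 genes in the same library (vertical axes, not starting at 0) for the 4 SNI libraries (red) and 4 Sham libraries (blue), with mean ± SD in black. Bdnf to Ntf3 and Bdnf to Ntrk2 are lower and Ntrk2 to Ntrk3 is higher in every SNI library than in every Sham library.

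Around these genes, 2 sorting receptors of the sortilin family fell in SNI, and both calls held under all 3 other scalings. Of 7 other ligands and receptors, 6 had a row, 5 were tested, and 2 fell, as 2.87% of all tested genes did. Sorcs3, a neuronal receptor of that family, had 42.4, 47.9, 33.8 and 47.6 CPM in SNI, against 63.6, 69.9, 73.2 and 67.7 CPM in Sham. The groups were well apart, with a log2 fold change of -0.67 ± 0.102 (SE) and an edgeR adjusted p of 0.00252. Sorl1, which sorts the amyloid precursor protein, had 280, 275, 242 and 283 CPM in SNI and 347, 351, 383 and 380.2 CPM in Sham, also with no overlap (log2 fold change -0.44, edgeR adjusted p = 0.00645). Sorcs1 and Sorcs2 had log2 fold changes of -0.20 and -0.16 and did not pass. Ntf5 reached 13 counts at most and was not tested.

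**Figure D3:**
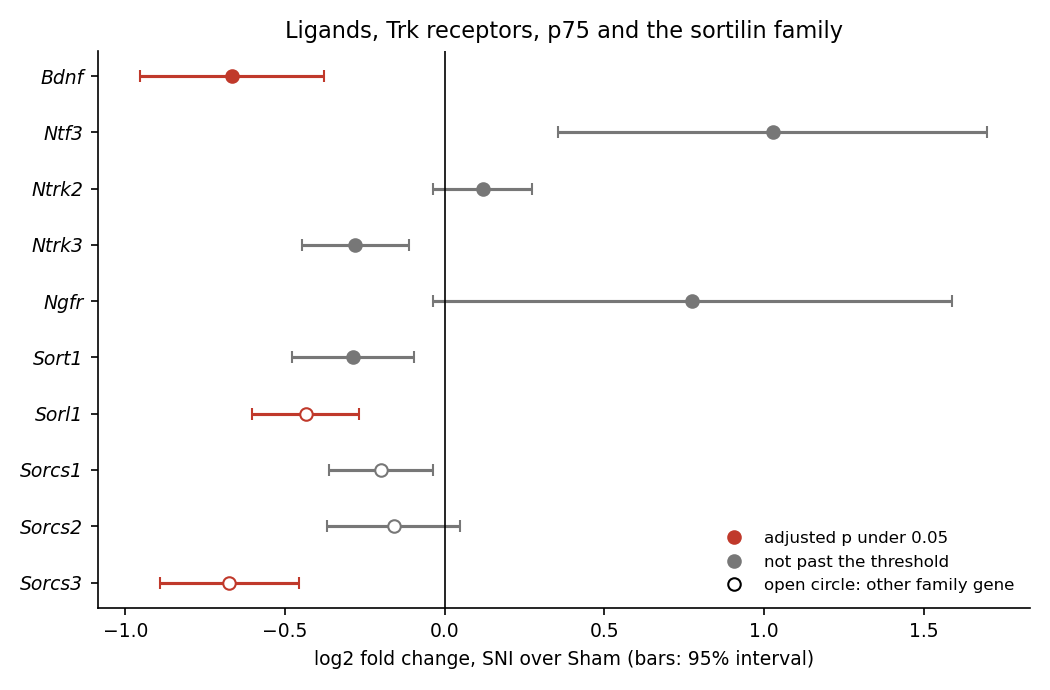
Log2 fold change, SNI over Sham, with its 95% interval (horizontal axis) for the 6 genes (filled) and 4 other sortilin-family receptors (open), red where the edgeR adjusted p was under 0.05. Bdnf, Sorl1 and Sorcs3 passed below 0, while Ntf3 and Ngfr have the widest intervals.

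Of the genes around the neurotrophins, 121 were tested in 6 lists, and 2 rose and 7 fell, which is 7.44% against 5.02% of all tested genes. Their median log2 fold change was -0.03. Of 13 tested genes that cleave or sort precursors, 0 passed in edgeR and DESeq2 and 1, Pcsk6, in limma voom (adjusted p = 0.0456), which also passed in edgeR without SNI replicate 2 (0.0417). Genes at an unadjusted p under 0.05 numbered 3 in edgeR, namely Pcsk6, a convertase (0.50, and 0.30 without SNI replicate 3, at an edgeR adjusted p of 0.307), Serpini1, a tissue plasminogen activator inhibitor (0.20), and Cadps, which primes dense-core vesicles (-0.19), on the log2 scale.

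Of 44 genes of Trk adaptors and kinase cascades, 1 rose and 1 fell, which is 4.55% against 5.02% of all tested genes. Mapk3, the kinase ERK1 downstream of Trk receptors, rose: it had 312, 213, 307 and 265 CPM in SNI and 192, 204, 173 and 164 CPM in Sham. SNI replicate 2 lay close to Sham replicate 2 and the other SNI libraries well above, with a log2 fold change of 0.58 ± 0.114 (SE) and an edgeR adjusted p of 0.011. Akt2, a survival kinase of the same receptors, fell by 0.36 on the log2 scale (edgeR adjusted p = 0.0195). The third by p, Rps6ka3, a kinase activated by ERK, had -0.24 and did not pass in edgeR (adjusted p = 0.119), but did in limma voom (0.0303) and in edgeR without SNI replicate 2 (0.0269) or replicates 2 and 4 (0.0396).

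Of 23 coreceptors, adaptors and sheddases of p75, 1 rose and 1 fell, which is 8.7% against 5.02% of all tested genes. Lingo1, a coreceptor of p75 in the Nogo receptor complex, had 379, 284, 297 and 382 CPM in SNI, against 483, 482, 535 and 441 CPM in Sham. No SNI library reached the Sham range (log2 fold change -0.53, edgeR adjusted p = 0.00999). Rtn4r, the Nogo receptor itself, had a log2 fold change of -0.39 and did not pass (edgeR adjusted p = 0.0805), but did in DESeq2 (0.0309) and in edgeR without SNI replicate 1 (0.0427). Without SNI replicates 2 and 3 the log2 fold changes were -0.35 for Lingo1 (edgeR adjusted p = 0.0489) and -0.20 for Rtn4r (0.314). Traf6, a ubiquitin ligase recruited by p75, rose by 0.46 on the log2 scale (edgeR adjusted p = 0.0308).

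Of 18 genes of Trk trafficking and turnover, 0 rose and 2 fell, which is 11.1% against 5.02% of all tested genes. They were Ndfip2, an adaptor of Nedd4-type ubiquitin ligases (-0.34), and Slitrk5, a membrane protein that associates with TrkB (-0.30). Rab7, a GTPase of late endosomes, had -0.16 and did not pass. The calls of Ndfip2 and Slitrk5, with edgeR adjusted p of 0.0466 and 0.036, were near the threshold and held in 7 and 6 of 19 alternatives. The call of Ndfip2 ended without any 1 of Sham replicates 1 to 4 and SNI replicates 1, 3 and 4 (edgeR adjusted p = 0.0510 to 0.156), and that of Slitrk5 without any 1 of Sham replicates 1 to 4 and SNI replicates 2, 3 and 4 (0.0577 to 0.140).

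Of 18 transcription regulators of Bdnf, 0 rose and 1 fell, which is 5.56% against 5.02% of all tested genes. This was Mef2c, an activity-dependent factor of excitatory neurons. It had 679, 664, 575 and 629 CPM in SNI and 795, 807, 896 and 863 CPM in Sham, with no overlap and a log2 fold change of -0.40 (edgeR adjusted p = 0.0121). Creb1, which encodes the factor that binds the motif printed above, had 58.2 ± 8.46 CPM in SNI and 58.1 ± 3.85 CPM in Sham (SD, n = 4 libraries each), and the log2 fold change was 0.01 with a 95% interval of -0.20 to 0.21. Npas4, induced by neuronal activity, had -0.19 with a 95% interval of -0.53 to 0.15. These 2 were chosen for their role after their values were seen. Mef2a, a factor of the same family as Mef2c, had 0.15 and did not pass.

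The call held in all 19 alternatives for Sorcs3 and Mapk3, in 18 for Sorl1 and Lingo1, in 17 for Mef2c, in 15 for Akt2 and in 10 for Traf6. It ended without Sham replicate 3 for Mef2c (edgeR adjusted p = 0.0588), for Akt2 (0.0551) and for Traf6 (0.0806), without Sham replicate 4 for Akt2 (0.0603), and without any 1 of Sham replicates 1 and 2 and SNI replicates 2, 3 and 4 for Traf6 (0.0562 to 0.0938). Without Sham replicate 3 the 9 calls among the lists became 4. The striatal covariate ended all of these calls except those of Sorcs3 and Mapk3. With it the log2 fold changes were -0.45 for Sorl1, -0.46 for Lingo1, -0.37 for Mef2c, -0.39 for Akt2 and 0.40 for Traf6. Their SEs were larger than in the reported fit, such as 0.114 against 0.079 for Sorl1. The striatal markers were themselves higher on average in SNI, at a median log2 fold change of 0.98. The part of striatal signal in these calls was not tested.

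**Figure D4:**
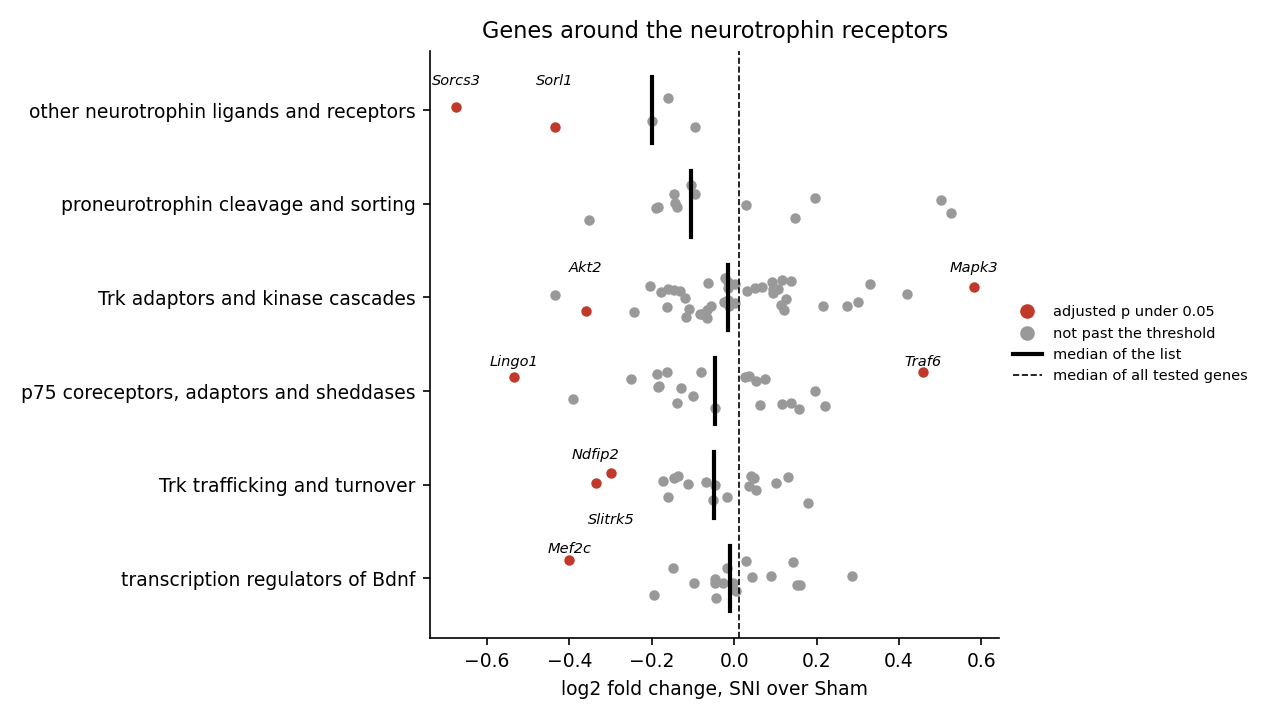
Log2 fold change, SNI over Sham (horizontal axis), of each tested gene in the 6 lists (1 row each), red and named where the edgeR adjusted p was under 0.05; black bars are list medians and the dashed line is the median of all tested genes, 0.01. Most genes lie near the dashed line, with 2 red points above it and 7 below.

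Some markers of cell types differed between the same groups, where 2.15% of all tested genes were higher and 2.87% lower in SNI. Of 8 excitatory neuron markers 2 fell, Nrn1 (-0.79) and Emx1 (-0.53), and the other 6 did not pass, while of 6 upper-layer neuron markers 3 fell, Lamp5 (-0.80), Mdga1 (-0.84) and Cux2 (-0.40), on the log2 scale. Summed upper-layer markers were 524 to 593 CPM in SNI and 618 to 806 CPM in Sham, with no overlap. SNI replicates 1 and 3, the libraries with the least Bdnf, had 5140 and 4645 CPM of summed excitatory markers. SNI replicates 2 and 4 had less, 3669 and 4535 CPM. Camk2a and Slc17a7 made up most of this sum (SNI means of 2436 and 1487 CPM). As the mean log2 CPM over the 8 markers, each centred on its own mean over the 8 libraries, the order differed. SNI replicate 3 then lay below SNI replicate 4 (-0.28 against -0.075), with SNI replicates 1 and 2 at 0.05 and -0.33. SNI replicates 1 and 3 also had less striatal signal, 373 and 448 CPM against 888 and 875 CPM. Without SNI replicates 2 and 4 the log2 fold change of Bdnf was -0.96 (edgeR adjusted p = 0.00231). Of the 9 striatal markers 0 passed in edgeR, 5 had an unadjusted p under 0.05, DESeq2 called 1 and limma voom 0, and their median log2 fold change was 0.98. Deep-layer neuron markers, 5 of 6 measured, went the other way, with 2 that rose and a summed 256 to 301 CPM in SNI against 168 to 257 CPM in Sham. Of 6 microglia markers 2 rose, P2ry12 (0.59) and Tmem119 (0.48), at a summed 316 to 458 CPM in SNI and 260.5 to 330.2 CPM in Sham. Among 5 oligodendrocyte precursor markers 1 fell, Gpr17 (-0.62, edgeR adjusted p = 0.0198), while limma voom called 0. GABAergic (8), oligodendrocyte (8) and endothelial (6) markers had 0 that passed with any of the 3 tools. Of 4 measured choroid plexus markers 2 rose, Ttr (2.46) and Clic6 (2.31), at a summed 6.09 to 8.12 CPM in SNI and 1.90 to 5.05 CPM in Sham, with no overlap. Both rest on few reads, 1 to 46 counts a library for Ttr and 1 to 42 for Clic6. Kl (0.96) and Aqp1, which went the other way (-0.91), did not pass in edgeR. Astrocyte markers, of the cells that carry truncated TrkB, were all measured (8 of 8) at a summed 3768 to 4884 CPM in SNI and 3871 to 4708 CPM in Sham, and 0 passed with any of the 3 tools (1 in edgeR at an unadjusted p under 0.05). That 1 was Gfap, with a log2 fold change of 0.94 and overlapping groups (edgeR unadjusted p = 0.0321), while the list median was 0.08. The sum says little about Gfap, since Slc1a2 alone had means of 2343 CPM in SNI and 2348 CPM in Sham. The part of these cell types in the Bdnf value was not tested.

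**Figure D5:**
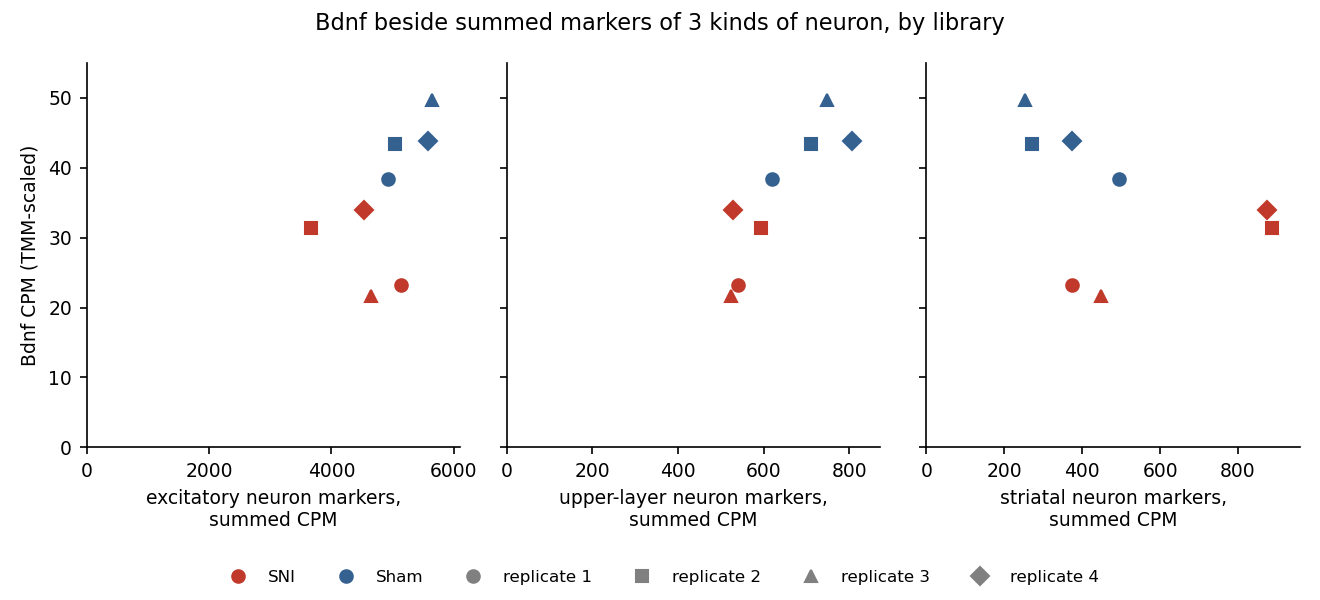
Bdnf level (vertical axis, TMM-scaled CPM) against the summed CPM of excitatory, upper-layer and striatal neuron markers (horizontal axes, from 0) in the 4 SNI libraries (red) and 4 Sham libraries (blue), with the replicate number as the marker shape. SNI libraries are lower on both axes for the upper-layer markers, while SNI replicates 1 and 3, lowest in Bdnf, lie inside the Sham range of the striatal markers, and of these only replicate 1 inside that of the excitatory markers.

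Over the 8 libraries, 13356 other genes were ranked by how closely their log2 CPM followed each of the 6 genes, as a description of libraries that share groups. Bdnf was followed most closely by Lrrtm3 (Pearson r 0.98) and Nptx2 (0.98), Ntf3 by Tmcc1 (0.96) and Stk33 (0.95), and Ntrk2 by Nxn (0.97) and Gpc5 (0.97). For Ntrk3 they were Shroom3 (0.98) and Iba57 (0.97), for Sort1 Slc8a1 (0.99) and Tnpo2 (0.99), and for Ngfr, at a few counts a library, Dnph1 (0.99) and Tor1aip1 (0.98). Of these genes, Lrrtm3, Nptx2, Shroom3, Iba57, Slc8a1 and Tnpo2 had negative log2 fold changes (-0.39, -0.76, -0.75, -0.48, -0.47 and -0.26), as did the gene each of them followed. The rest had positive ones, again like the gene each followed. All were picked for r over libraries of both groups, so a shared sign was likely from the start and adds no support. On the same measure, the largest r between members was 0.74, between Ntrk3 and Sort1, over 15 pairs against 13356 candidates for each gene above. With group means removed, the members reached 0.70 between Ntrk2 and Ntrk3 and -0.78 between Ntf3 and Ngfr, the extremes of the 15 pairs over 8 libraries. Ntrk2 varied little within SNI (582 to 589 CPM). Sham replicate 1 was the lowest Sham library in both Ntrk2 (496 CPM) and Ntrk3 (131.7 CPM). Ntf3 and Ngfr rest on few reads, 16 to 65 and 6 to 34 counts a library.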

How the data were processed

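The deposited file gives the authors' integer read counts for every gene symbol in 8 libraries, 4 SNI and 4 Sham. The submitters' processing notes name fastp, HISAT2, StringTie and build GRCm38. Versions, gene annotation, strand setting and any filter are unstated in the sources used here, and no listed count is below 1.

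Low genes were dropped with filterByExpr, leaving 13911 of 14765. Counts were TMM-scaled, and SNI was tested over Sham with edgeR 4.0.16 in R 4.3.3 (robust quasi-likelihood F-test with no other term, FDR threshold 0.05). SE is the log2 fold change divided by the square root of F, and log2 CPM used a prior count of 2. Coordinates and exon lengths come from GENCODE M21 (14661 symbols matched) and promoters from RefSeq. The members, lists and libraries left out were chosen with earlier results of these data known. Pathway genes named are those past the threshold plus the 3 of smallest p in each list. Some genes of these lists are not reported here by name. For each member the 2 genes of highest r were named, among those with a mean log2 CPM of 0 or more and excluding predicted genes.

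The test was checked on simulated SNI over Sham counts of 13830 genes. It found 53.7% of the 67 genes given a log2 change of 0.5, 89.6% of the 67 given 1 and 100% of the 66 given 2, and 11 of its 173 calls were wrong. Simulated libraries without any change gave 1 call. No library was a copy, since same-group pairs differed by a chi-square per degree of freedom of 7.74 to 29.96. Alternatives were 3 scalings, 2 filters, DESeq2 1.42.0, limma 3.58.1 voom, a replicate block, a striatal covariate and libraries left out.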

Additional observations from a re-analysis of the deposited data

Results flagged for a closer look

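In groups of 4 libraries, a library far from the other 3 was found for 2 of the values described. Ntrk3 had 131.7 CPM in Sham replicate 1, while the other Sham libraries had 150.4 to 152.4 CPM. Serpini1 had 346.5 CPM in Sham replicate 2, against 363.7 to 367.1 CPM in the other Sham libraries. The check looked at 54 groups of 4 and is expected to mark about 1 in 20 of them by chance.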

How the results depend on the processing

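Of the 6 genes, Ntrk2 and Ngfr stayed short of the threshold in each of 19 alternatives, and none of the 6, the named pathway genes and the ratios changed direction. Bdnf lost its call with the striatal covariate (-0.85) and without SNI replicates 2 and 3 (-0.61). Calls were gained by Ntf3 with DESeq2 (1.02) and limma voom (1.19), by Ntrk3 with the same tools (-0.29 and -0.29) and by Sort1 with DESeq2 (-0.29). With 1 library left out, log2 fold changes ran from 0.82 to 1.43 for Ntf3, -0.33 to -0.26 for Ntrk3 and -0.35 to -0.24 for Sort1, and log2 differences of the Bdnf to Ntf3 ratio from -2.07 to -1.58. That ratio lost its call without SNI replicate 1 (-1.65, adjusted p = 0.0571, exact permutation test). The cause was not tested. Over all genes, the 698 calls (299 higher, 399 lower in SNI) became 1165 with DESeq2, 41 with the striatal covariate, 438 with SNI replicates 2 and 4 dropped, 178 with 2 and 3 dropped, and 258 to 858 with 1 library left out; 447, 430 and 258 of these were without Sham replicates 1, 2 and 3, and 297 without SNI replicate 3. Library totals alone gave 446 higher and 276 lower. Pathway genes called, 9 in the reported fit, numbered 2 with the covariate and 4 to 9 with 1 library left out, not always the 9 named (Rtn4r passed without SNI replicate 1, Ndfip2 did not).

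Same-numbered libraries did not deviate together (correlations of -0.15 to -0.01, against -0.18 to 0.22 for differently numbered ones). No pairing by number was seen, but 4 such correlations cannot exclude a weak one. With the replicate block 518 genes and 7 pathway genes passed, and Bdnf had -0.68 (edgeR adjusted p = 0.0122). The ratios kept their log2 differences (-1.82, 0.40 and -0.81) under the replicate block, with an exact sign-flip p of 0.125, the smallest that 4 pairs can give. Depth limits Ngfr and Ntf3 most, at 6 to 34 and 16 to 65 counts.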
